A study of Mus musculus with 5 samples.

Results

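Genes of antigen presentation by major histocompatibility complex (MHC) molecules were followed in stromal cells sorted from the mouse fallopian tube (oviduct). The 10 genes were chosen by name, out of 23857 in the deposited table. They comprise 7 genes of the class II pathway (Cd74, H2-Aa, H2-Ab1, H2-Eb1, H2-DMa, H2-DMb1 and Ciita) and 3 of class I (B2m, H2-K1 and H2-D1). All 10 are listed in the table and all 10 passed the filter on low values, a level of at least 1 TPM in at least 2 libraries. TPM corrects a gene's reads for transcript length and for the total of the library, so levels of different genes can be set beside each other within a library.

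RNA was sequenced in bulk from YFP-positive cells of 5 young adult female mice, 1 library per mouse. The 2 controls, mice 2 and 3, had the genotype Pdgfra-Cre;R26Y, with wild-type Esr1. The 3 experimental mice, numbered 1 to 3, had the genotype Pdgfra-Cre;Esr1(fl/fl);R26Y, in which Cre removes floxed sequence of Esr1 (estrogen receptor alpha). Both groups thus carried the recombinase and the reporter. Pdgfra-Cre is driven by the promoter of Pdgfra, a receptor gene of mesenchymal cells, and R26Y marks with YFP every cell in which Cre has been active, as well as the descendants of that cell. The strain background is not given in the sources used here. The comparison asks what differs in these cells when the stroma loses the receptor.

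Peptides are shown to T cells on a pair of related molecules. Class I molecules consist of a heavy chain and beta-2-microglobulin, are made by nearly all nucleated cells, and carry peptides cut by the proteasome and pumped into the endoplasmic reticulum. Class II molecules are pairs of an alpha and a beta chain, carry peptides made in endosomes and lysosomes, and are found mainly on dendritic cells, macrophages and B cells, although interferon gamma can induce them in other cells, fibroblasts and epithelium included.

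Esr1 itself did not follow the labels. Control mice 2 and 3 had 83.3 and 77.6 TPM, and the libraries labelled Esr1 knockout, mice 1, 2 and 3, had 28.9, 85.0 and 169.9 TPM. Its difference in log2(TPM + 1) was -0.10 (standard error 0.64, limma adjusted p 0.948, exact permutation p 1). Whether floxed exons were lost from the transcripts cannot be read from values per gene. Stromal transcripts were abundant in every library, with Dcn (decorin) at 6764 to 10110.4 TPM. Transcripts of other cells were present as well: Ptprc (CD45, the common leukocyte antigen) was at 15.6 to 54.6 TPM, and Ovgp1 (oviductin, of secretory epithelium) at 1522 to 11258 TPM. In control mice 2 and 3, 19061 and 19432 genes reached 1 TPM, against 17148, 18190 and 15841 in knockout-labelled mice 1, 2 and 3. Rpph1, a non-coding RNA, took 13.1% to 22.3% of all TPM. Directions below refer to libraries labelled Esr1 knockout relative to controls.

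Class II genes were abundant in the controls, and lay lower in knockout-labelled mice 2 and 3 but not to the same extent in mouse 1. All 7 had negative differences, as had 52.2% of all genes tested, between -2.00 for H2-Eb1 and -0.65 for Ciita on the log2(TPM + 1) scale, with a median of -0.90 beside -0.022 over all 19292 genes tested. In knockout-labelled mice 2 and 3 all 7 were below both controls, and in mouse 1 only H2-DMa and H2-DMb1 were. Over all 19292 genes, 32.6%, 44.3% and 53.9% lay below both controls in mice 2, 3 and 1. No class II gene passed the threshold of 0.05 for the adjusted p (limma, adjusted p 0.313 to 0.529), where 0.0156% of all genes were called lower. At an unadjusted p under 0.05, 3 of the 7 were lower, against 9.87% of all genes. In bulk RNA, fewer cells of a type and less RNA per cell cannot be told apart.

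The invariant chain Cd74 holds new class II dimers, blocks their groove and leads them to the endosome. It was at 1617 and 1379 TPM in control mice 2 and 3, against 1420.3, 788 and 365 TPM in knockout-labelled mice 1, 2 and 3. Mouse 1 lay between the controls, while mice 2 and 3 lay at 52.6% and 24.4% of the control mean, so the groups overlapped through 1 library. The log2 difference was -1.01 (standard error 0.52, limma adjusted p 0.427). The exact permutation p was 0.4, where 10 ways of assigning the libraries allow no p below 0.1.

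H2-Aa and H2-Ab1 encode the alpha and beta chains of I-A, a classical class II molecule. H2-Aa was at 1297 and 1269 TPM in the controls, against 1279, 733 and 348 TPM in knockout-labelled mice 1, 2 and 3. H2-Ab1 was at 1024 and 923 TPM in the controls, against 961, 568 and 203 TPM in knockout-labelled mice 1, 2 and 3. Again mouse 1 lay between the controls and mice 2 and 3 below them. The log2 differences were -0.90 (standard error 0.50) for H2-Aa and -1.02 (standard error 0.59) for H2-Ab1, with limma adjusted p of 0.450 and 0.464 and, for H2-Ab1, an exact permutation p of 0.4. The alpha and beta chains stayed near one ratio, 1.27 to 1.37 in 4 libraries and 1.72 in knockout-labelled mouse 3.

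H2-Eb1, the beta chain of the second classical class II molecule, I-E, behaved differently from its neighbours. It was at 11.6 TPM in control mouse 2 and 69.9 TPM in control mouse 3, and at 11.8, 6.30 and 3.46 TPM in knockout-labelled mice 1, 2 and 3. Control mouse 3 thus stood 6.03-fold above the other control and 5.92-fold above the highest of the other 4 libraries, whereas Cd74, H2-Aa and H2-Ab1 in that library were slightly below control mouse 2. Relative to H2-Ab1 it was at 0.0758 in control mouse 3 and at 0.0111 to 0.0171 in the other 4. The log2 difference of -2.00 (standard error 0.74, limma adjusted p 0.336) rests on that library: without control mouse 3 it was -0.75. Of 88 tested genes between H2-K1 and H2-D1 on chromosome 17, H2-Eb1 was the only one with a mean of at least 5 TPM that stood at least 3-fold above all other libraries in control mouse 3. Over all tested genes 5 did so there, and 4 to 25 did in each of the other libraries. H2-Ea, the alpha chain locus of I-E, is annotated as a transcribed pseudogene in the C57BL/6J reference. It was at 80.2 and 70.9 TPM in the controls, against 68.1, 40.7 and 25.1 TPM in knockout-labelled mice 1, 2 and 3, so it showed no excess in control mouse 3.

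H2-DMa and H2-DMb1 form DM, which removes the last piece of the invariant chain from the groove so that other peptides can bind. H2-DMa was at 33.3 and 30.6 TPM in the controls, against 26.9, 16.5 and 10.4 TPM in knockout-labelled mice 1, 2 and 3. H2-DMb1 was at 33.7 and 34.2 TPM in the controls, against 27.7, 18.2 and 15.6 TPM in knockout-labelled mice 1, 2 and 3. These were the 2 of 7 class II genes whose groups did not overlap, a share near the 21.9% of all genes that were lower without overlap. H2-DMb1 had a log2 difference of -0.74 (standard error 0.26, limma adjusted p 0.313) and H2-DMa one of -0.89 (standard error 0.36, limma adjusted p 0.354).

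Ciita encodes the class II transactivator, the coactivator on which class II transcription depends. It was at 11.7 and 8.39 TPM in the controls, against 10.3, 6.91 and 2.76 TPM in knockout-labelled mice 1, 2 and 3. Mouse 1 lay between the controls, and mice 2 and 3 were below both. The log2 difference of -0.65 (standard error 0.46, limma adjusted p 0.529) is understated by the added 1 TPM more than those of the abundant genes. The ratio of Cd74 to Ciita was between 114 and 164 in all 5 libraries.

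**Figure D1:**
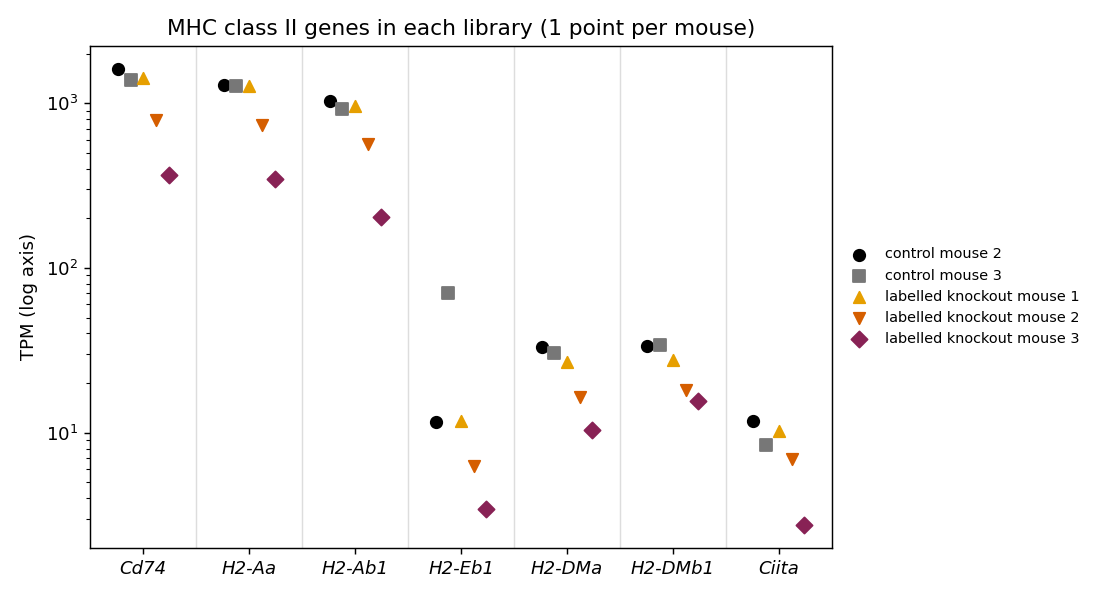
TPM of the 7 class II genes on a log axis, with 1 point per library and no error bars. Control mice 2 and 3 and knockout-labelled mouse 1 lie close together for Cd74, H2-Aa and H2-Ab1, knockout-labelled mouse 3 is the lowest library for every gene, and H2-Eb1 stands apart in control mouse 3 at 69.9 TPM.

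Promoters of class II genes typically hold an X box, bound by the RFX complex, and a Y box, bound by NF-Y, to which Ciita is recruited. Class II windows that held such letters are shown because these genes were low in the same libraries. RefSeq promoter windows (build GRCm38.p6) matched 7 of the 10 members, and the 180 bases before the annotated start of each window were searched. Both windows of H2-DMa held none of the X box core, the Y box core or the palindrome and are not printed. They end at 34122831 and 34125517, inside the annotated span of the gene (34119693 to 34139101). Whether they cover the start used in these cells was not tested, so the gene may hold these motifs elsewhere. The other 6 members are printed here and with class I, 5′ to 3′, with motif matches in capitals. Motifs were searched on both strands: CCAAT for the core of the Y box (ATTGG on the opposite strand), AACNGATG for the core of the X box and TGACGTCA for the palindrome often found beside it.
H2-Eb1 (chr17:34305687-34305866, plus strand): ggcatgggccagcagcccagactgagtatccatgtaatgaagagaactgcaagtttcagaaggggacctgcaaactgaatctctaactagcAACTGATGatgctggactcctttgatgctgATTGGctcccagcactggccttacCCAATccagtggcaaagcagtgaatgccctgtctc
H2-DMb1 (chr17:34153011-34153190, plus strand): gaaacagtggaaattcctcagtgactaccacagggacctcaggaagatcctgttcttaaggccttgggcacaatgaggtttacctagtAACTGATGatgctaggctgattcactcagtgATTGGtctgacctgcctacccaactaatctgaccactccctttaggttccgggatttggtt
H2-Aa (chr17:34287824-34288003, minus strand): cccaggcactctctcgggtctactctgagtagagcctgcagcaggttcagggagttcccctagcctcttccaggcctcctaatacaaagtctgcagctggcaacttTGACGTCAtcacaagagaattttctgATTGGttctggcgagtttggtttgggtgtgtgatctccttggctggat
The X box core was in 1.39% of 32851 windows of this length, the palindrome in 1.45% and the Y box core in 27.5%. H2-Eb1 and H2-DMb1 held an X box core followed by ATTGG, with 30 and 31 bases between their first letters. H2-Aa held no X box core in these letters but had the palindrome, 26 bases before ATTGG. H2-Eb1 also held CCAAT closer to its start, which H2-DMb1 did not. A match of letters is a description and not a bound site.

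All 4 other class II genes of the locus that were tested lay below both controls in knockout-labelled mice 2 and 3, and 3 of 4 did in mouse 1 (32.6%, 44.3% and 53.9% of all genes in mice 2, 3 and 1). DO and DM subunits outside the 10 genes were measured as H2-Oa, H2-Ob and H2-DMb2, and H2-Ea completes the 4 genes tested. H2-Eb2, at 0.24 to 0.98 TPM, was not tested. All 4 had negative differences, as had 52.2% of all genes, with a median of -0.79. In limma 0 passed the adjusted threshold and 2 were lower at an unadjusted p under 0.05, against 0.0156% and 9.87% of all genes, and without knockout-labelled mouse 1 3 of the 4 passed, against 2.63%. H2-DMb2 was lowest in mouse 2, at 9.75 TPM against 10.2 TPM in mouse 3, unlike the 7 members, for which mouse 3 was lowest. H2-Oa, a subunit of DO, which restrains DM, had the lowest difference: it was at 13.2 and 16.6 TPM in the controls, against 11.7, 6.91 and 3.95 TPM in knockout-labelled mice 1, 2 and 3 (-0.99, standard error 0.39, limma adjusted p 0.349). H2-Ob, the other subunit of DO, had the smallest difference of the 4, at -0.60 (limma adjusted p 0.525).

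Each library was left out in turn, and the calls changed most without knockout-labelled mouse 1. That library had the lowest Esr1, so the 2 that remain in its group had Esr1 at 85.0 and 169.9 TPM, above both controls. The class II median was then -1.34, beside 0.028 over 19106 genes tested, and 2 of the 7 genes passed the adjusted threshold, H2-DMb1 (log2 difference -0.97, limma adjusted p 0.0245) and H2-DMa (-1.22, limma adjusted p 0.0352). In that fit 2.63% of all genes were called lower and 5.35% higher. Cd74 (-1.48, adjusted p 0.0586), H2-Aa (-1.34, adjusted p 0.0651) and H2-Ab1 (-1.51, adjusted p 0.0904) did not pass in limma. Markers of other cells were called in the same fit: 7 of 12 macrophage and monocyte, 2 of 10 pan-leukocyte and 2 of 10 dendritic cell markers as lower, and 6 of 11 epithelial markers as higher. Leaving out knockout-labelled mouse 3 in its place gave a class II median of -0.50 and no call, with 0 of the 7 at an unadjusted p under 0.05 (limma), where 7.34% of all genes were lower by that rule. The size of the difference therefore depended on which of the 3 libraries were used, while its sign was negative for each of the 7 genes in each of the 16 alternatives run.

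**Figure D2:**
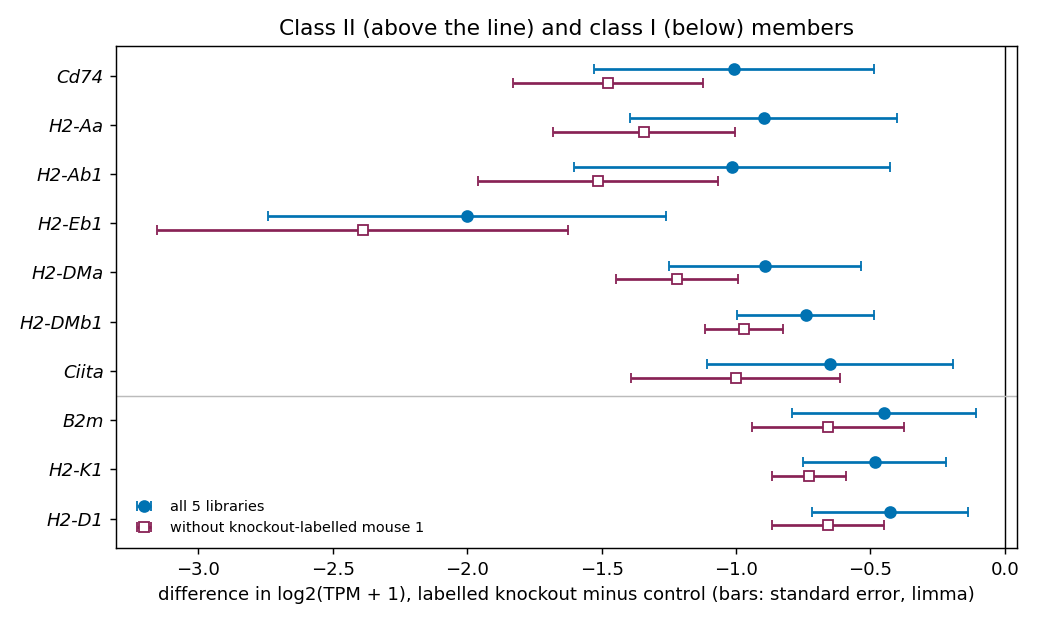
Difference in log2(TPM + 1), labelled knockout minus control, for the 10 members, with bars of 1 standard error from limma. Filled circles use all 5 libraries and open squares leave out knockout-labelled mouse 1, and every point lies below 0 and further from it without that library.

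Class I genes lay lower in the same 2 libraries, by a smaller factor. The class II sum over the class I sum was 1.02 and 1.01 in the controls and 0.99, 0.71 and 0.49 in knockout-labelled mice 1, 2 and 3, and the difference between the classes was not tested. All 3 had negative differences, as had 52.2% of all genes, with a median of -0.45. In limma 0 of 3 passed the adjusted threshold (adjusted p 0.447 to 0.555). At an unadjusted p under 0.05, 0 of 3 were lower, against 9.87% of all genes. All 3 were below both controls in knockout-labelled mice 2 and 3, and 0 of 3 in mouse 1. Over all genes tested, 32.6%, 44.3% and 53.9% lay below both controls in mice 2, 3 and 1. B2m encodes beta-2-microglobulin, the light chain of class I molecules. It was at 3411 and 3202 TPM in the controls, against 3234, 2658 and 1649 TPM in knockout-labelled mice 1, 2 and 3. Mouse 1 lay between the controls, and mouse 3 was at 49.9% of their mean. The log2 difference was -0.45 (standard error 0.34, limma adjusted p 0.555, exact permutation p 0.4).

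H2-K1 and H2-D1 are heavy chains of classical class I molecules. H2-K1 was at 225 and 211 TPM in the controls, against 219, 145 and 119 TPM in knockout-labelled mice 1, 2 and 3, a log2 difference of -0.48 (standard error 0.27, limma adjusted p 0.447). H2-D1 was at 333 and 263 TPM in the controls, against 303, 223 and 157 TPM in knockout-labelled mice 1, 2 and 3, a log2 difference of -0.43 (standard error 0.29, limma adjusted p 0.520). For both, mouse 1 lay between the controls and the groups overlapped. Class I heavy chain genes are close relatives and reads may be split between them, so the level of each alone is uncertain. B2m stood at 5.98 to 7.22 times the sum of the 2 heavy chains in all 5 libraries. Without knockout-labelled mouse 1, H2-K1 passed the adjusted threshold (-0.73, limma adjusted p 0.0362), while B2m (-0.66, adjusted p 0.183) and H2-D1 (-0.66, adjusted p 0.103) did not. In that fit 2.63% of all genes were called lower. Without knockout-labelled mouse 3 the differences were -0.17 for B2m, -0.29 for H2-K1 and -0.19 for H2-D1, with a median of -0.19 and adjusted p of 0.797 to 0.910 (limma).

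The likeness of the heavy chain genes extends into their promoters, which are printed for that reason, from the same RefSeq build. Capitals mark CCAAT (or ATTGG), the kappa B site GGGATTCCC, which NF-kappa B binds, and GAAANNGAA, a core of the interferon response element. For H2-K1, 1 of the 2 windows in the table is shown.
H2-K1 (chr17:34000334-34000513, minus strand): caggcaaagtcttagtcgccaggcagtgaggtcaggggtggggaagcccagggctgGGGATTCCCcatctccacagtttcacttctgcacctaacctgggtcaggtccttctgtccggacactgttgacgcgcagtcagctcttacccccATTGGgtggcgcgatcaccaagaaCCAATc
H2-D1 (chr17:35262914-35263093, plus strand): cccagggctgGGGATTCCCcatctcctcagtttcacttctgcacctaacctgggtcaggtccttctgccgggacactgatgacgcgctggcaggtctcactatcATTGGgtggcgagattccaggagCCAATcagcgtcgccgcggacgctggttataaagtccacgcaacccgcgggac
B2m (chr2:122147507-122147686, plus strand): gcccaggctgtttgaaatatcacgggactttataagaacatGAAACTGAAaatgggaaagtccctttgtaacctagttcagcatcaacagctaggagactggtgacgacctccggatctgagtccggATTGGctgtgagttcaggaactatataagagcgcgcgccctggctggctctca
Aligned on the kappa B site with no gaps, H2-K1 and H2-D1 were identical at 110 of 134 bases (82.1%), and in both the kappa B site began 94 bases before ATTGG. That site was in 0.180% of 32851 windows. B2m held GAAANNGAA (4.89% of windows) and ATTGG, 86 bases apart. H2-K1 and H2-D1 had no match to GAAANNGAA. Other forms of the interferon response element were not searched, so lower-case letters do not show that these promoters lack one. All 3 class I members held the Y box core and 0 of 3 the X box core in these letters, which the windows of H2-Aa and H2-DMa lacked too.

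**Figure D3:**
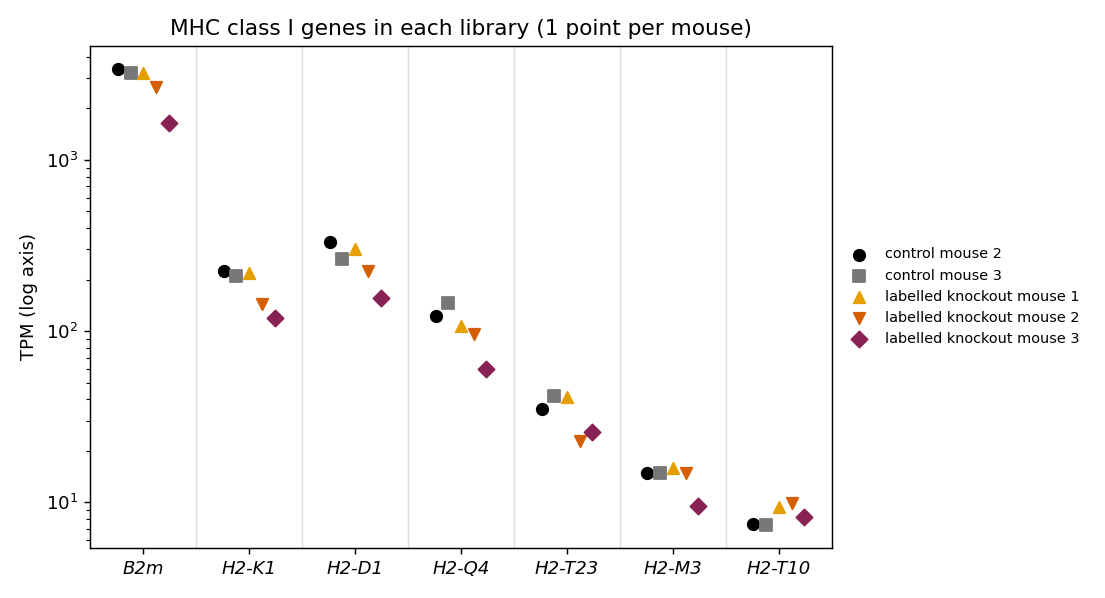
TPM of B2m, both classical heavy chains and 4 other class I genes on a log axis, 1 point per library. Knockout-labelled mouse 3 is the lowest library for B2m, H2-K1, H2-D1, H2-Q4 and H2-M3, and H2-T10 has no knockout-labelled library below the controls.

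Among the other class I genes, 6 of 9 were tested and 0 passed in either direction, beside 0.0259% of all genes (limma, 1 at an unadjusted p under 0.05, beside 13.6% of all genes). H2-Q4, a class Ib heavy chain, had the lowest difference. It was at 123 and 145 TPM in the controls, against 107, 96.3 and 60.4 TPM in knockout-labelled mice 1, 2 and 3 (-0.64, standard error 0.26, limma adjusted p 0.360). H2-T10 had the highest, at 7.41 and 7.37 TPM in the controls and 9.34, 9.87 and 8.16 TPM in knockout-labelled mice 1, 2 and 3 (0.27, limma adjusted p 0.554). These genes too belong to families whose reads may be shared.

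The genes that supply and load class I peptides went in both directions. Of 13 tested, 8 had negative and 5 positive differences (52.2% of all genes were negative), with a median of -0.023, and 0 passed the adjusted threshold (limma, 1 at an unadjusted p under 0.05, beside 0.0259% and 13.6% of all genes). Among the immunoproteasome subunits, Psmb8 (-0.12), Psmb9 (-0.44) and Psmb10 had negative differences, with Psmb8 above both controls in knockout-labelled mouse 1. Psmb10 was the lowest, at 41.1 and 41.9 TPM in the controls and 33.6, 32.5 and 21.4 TPM in knockout-labelled mice 1, 2 and 3 (-0.52, limma adjusted p 0.383). Chaperones of the endoplasmic reticulum differed among themselves, with Canx (calnexin) at 0.20, Tapbpl at -0.0047 and Tapbp (tapasin) at -0.061. Calr (calreticulin), which holds class I heavy chains during loading, was the highest, at 799.6 and 786 TPM in the controls and 933, 1288 and 1274 TPM in knockout-labelled mice 1, 2 and 3 (0.54, standard error 0.23, limma adjusted p 0.368). Without knockout-labelled mouse 1, Calr (adjusted p 0.0443) and Pdia3 (adjusted p 0.0398), another chaperone of the loading complex, passed the threshold as higher and Psmb9 (-0.65, adjusted p 0.0392) as lower in limma. Of all genes, 5.35% were called higher and 2.63% lower in that fit. Tap2, a subunit of the peptide pump, was at 29.5 to 38.1 TPM in all 5 libraries.

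**Figure D4:**
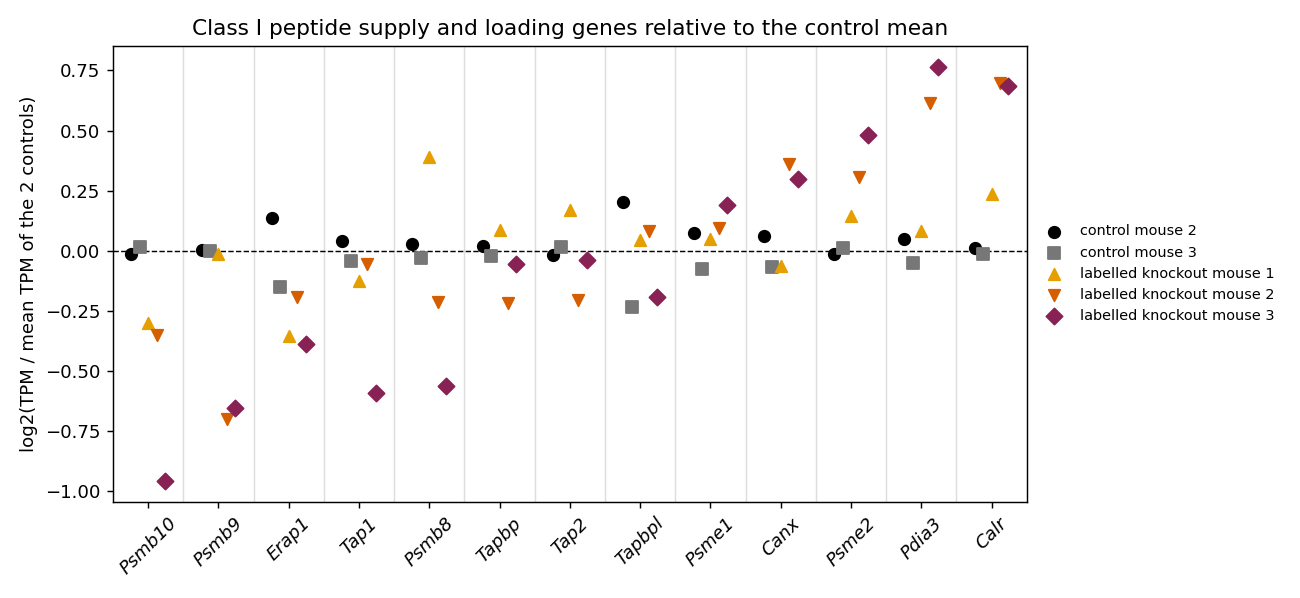
The 13 class I peptide supply and loading genes, ordered by their difference, as log2 of TPM over the mean of the controls, 1 point per library. The low end holds Psmb10 and Psmb9 and the high end Pdia3 and Calr, where knockout-labelled mice 2 and 3 lie above both controls.

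Lysosomal enzymes of the class II route differed among themselves. Of 6 tested, 4 were negative and 2 positive, with a median of -0.38 and 0 past the adjusted threshold (limma, 2 lower at an unadjusted p under 0.05, against 9.87% of all genes). Lgmn (legumain, an asparaginyl endopeptidase) was the lowest: 150.3 and 171 TPM in the controls against 90.2, 78.6 and 72.2 TPM in knockout-labelled mice 1, 2 and 3, with no overlap (-0.99, standard error 0.17, limma adjusted p 0.130). Without mouse 1 it passed the threshold (-1.08, limma adjusted p 0.0152), where 2.63% of all genes were called lower. Ctss (cathepsin S), which trims the invariant chain in antigen-presenting cells, was at 362 and 337 TPM in the controls, against 336, 214 and 99.9 TPM in knockout-labelled mice 1, 2 and 3. Ctsb (cathepsin B) was the highest of the list, at 356 and 312 TPM in the controls and 249, 388 and 584 TPM in knockout-labelled mice 1, 2 and 3 (0.20, limma adjusted p 0.792).

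Regulators of MHC transcription or of class II at the surface, other than Ciita, showed no common direction. Of 16 tested, 7 were negative and 9 positive, with a median of 0.0042, and 0 passed (limma, 0 at an unadjusted p under 0.05, against 13.6% of all genes). Rfx5, the DNA-binding subunit of the X box complex, was at 17.2 and 15.3 TPM in the controls, against 14.3, 17.6 and 17.7 TPM in knockout-labelled mice 1, 2 and 3 (0.020, standard error 0.19, limma adjusted p 0.965). Marchf1, a ubiquitin ligase that removes class II from the surface, was the lowest at -0.63 (limma adjusted p 0.432), and Nfyb, a subunit of the Y box factor, the highest at 0.26 (limma adjusted p 0.558). Ifng, the gene of interferon gamma, was at 1.25 to 2.79 TPM.

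Antigen-presenting cells also give T cells stimulating or inhibiting signals beside MHC and peptide. The list held the ligands Cd80, Cd86 and Icosl, the receptor Cd40, the maturation marker Cd83 and the inhibitory ligands Cd274 and Pdcd1lg2. In knockout-labelled mice 1, 2 and 3, 6, 5 and 6 of these 7 genes lay below both controls, against 53.9%, 32.6% and 44.3% of all genes. Of 7 tested, 6 were negative, with a median of -0.92, and 0 passed the adjusted threshold (limma, 5 at an unadjusted p under 0.05, against 9.87% of all genes). Cd83, a marker of mature dendritic cells, was the lowest: 47.6 and 80.8 TPM in the controls against 28.6, 21.1 and 8.33 TPM in knockout-labelled mice 1, 2 and 3 (-1.79, standard error 0.49, limma adjusted p 0.229). Icosl, the highest, was at 67.4 to 79.1 TPM throughout (0.076, limma adjusted p 0.827).

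Summed pan-leukocyte, macrophage and dendritic cell markers were highest in mouse 1 and lowest in mouse 3 among the knockout-labelled libraries, as was the class II sum. They lay below both controls in all 3, whereas the class II sum of mouse 1 lay between the controls. The 10 pan-leukocyte genes summed to 1222 and 1247 TPM in the controls and to 1089, 702 and 343 TPM in knockout-labelled mice 1, 2 and 3, which is 88.3%, 56.9% and 27.8% of the control mean. The class II sum was at 96.5%, 55.2% and 24.5% in the same 3 libraries, and the class I sum at 98.3%, 79.2% and 50.4%. Ptprc was at 54.6 and 50.8 TPM in the controls, against 46.6, 30.4 and 15.6 TPM in knockout-labelled mice 1, 2 and 3, with no overlap (-0.88, standard error 0.41, limma adjusted p 0.394). Divided by Ptprc, the class II sum was 73.7 and 73.1 in the controls and 80.3, 70.3 and 60.8 in knockout-labelled mice 1, 2 and 3. Divided by the pan-leukocyte sum it was 3.30 and 2.98 in the controls and 3.43, 3.04 and 2.77 in those mice. Divided by the macrophage and monocyte sum it was 1.47 and 1.08 in the controls and 1.76, 1.53 and 0.99 in those mice, so the controls themselves differed. All 10 pan-leukocyte and all 12 macrophage and monocyte markers had negative differences, as had 52.2% of all genes, and none of these genes was at 0 in any library. Tyrobp was the lowest of the first list at -1.23 and Coro1a the highest at -0.35.

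The separate cell types were as follows. Macrophage and monocyte markers summed to 2748 and 3440.1 TPM in the controls and to 2119, 1398 and 958 TPM in knockout-labelled mice 1, 2 and 3, with Cd14 the lowest at -1.35 (limma adjusted p 0.197) and Cx3cr1 the highest at -0.41. Dendritic cell markers summed to 134 and 146 TPM in the controls and to 126, 62.7 and 38.0 TPM in those mice, with Cd209a the lowest at -1.72 (limma adjusted p 0.288) and Zbtb46 the highest at 0.19. B cell markers went another way, at 99.3 and 98.6 TPM in the controls and 48.7, 101 and 50.3 TPM in the knockout-labelled mice, so that mouse 2, low in class II, was at the control level (Cd79a lowest at -0.80, Fcmr highest at -0.18). Of 8 T and NK cell markers, 2, 3 and 0 lay above both controls in knockout-labelled mice 1, 2 and 3. Of all 19292 genes tested, 4020 did so in mouse 1, and 47.5% and 40.9% in mice 2 and 3. Of the 8 markers, 1, 3 and 7 lay below both controls in mice 1, 2 and 3, against 53.9%, 32.6% and 44.3% of all genes. Cd3e was the highest of that list at 0.089 and Cd4 the lowest at -0.89. Cd3e was at 9.76 and 13.7 TPM in the controls, against 35.9, 17.2 and 2.57 TPM in those mice. Of 11 epithelial markers, 10 lay above both controls in each of knockout-labelled mice 2 and 3, against 47.5% and 40.9% of all genes, and 7 lay below both in mouse 1, against 53.9%, with Ovgp1 at 2273 and 2463 TPM in the controls, against 1522, 10655 and 11258 TPM in the others. Stromal markers were below both controls for 4, 6 and 7 of 9 in knockout-labelled mice 1, 2 and 3, against 53.9%, 32.6% and 44.3% of all genes, with Lum (lumican) the lowest at -2.01 (limma adjusted p 0.0978) and Thy1 the highest at 0.52. Endothelial markers ran from -0.49 for Vwf to 0.24 for Cldn5, and the epithelial list from -0.018 for Krt7 to 1.26 for Ovgp1. Because TPM is a share of the library, more RNA of one cell type lowers the share of others. The part of leukocyte and epithelial RNA in the MHC differences was not tested.

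**Figure D5:**
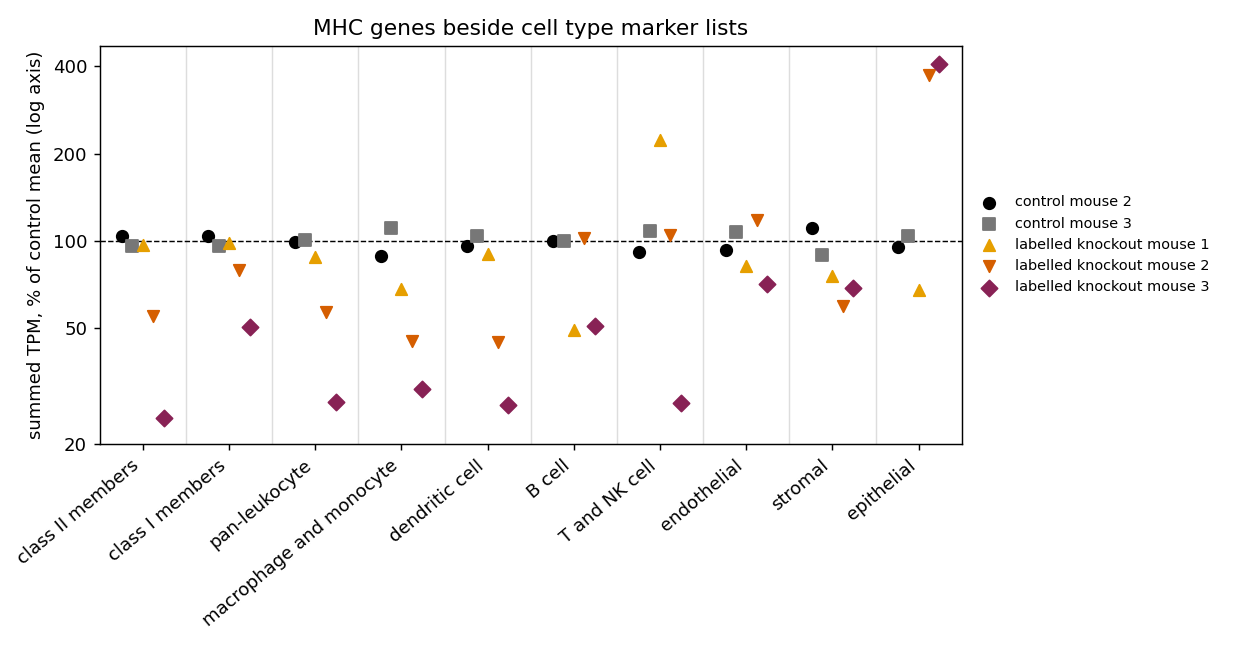
Summed TPM of the class II and class I members and of 8 marker lists, as a percentage of the mean of the controls on a log axis, 1 point per library. In knockout-labelled mice 2 and 3 the class II sum (55.2% and 24.5%) lies near the pan-leukocyte sum (56.9% and 27.8%), whereas the class I sum is higher (79.2% and 50.4%) and the epithelial sum is at 374% and 408%. Most of that epithelial sum is 1 gene, Ovgp1, with 10655 and 11258 of 12137 and 13247 TPM in those libraries.

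Of 12596 tested genes outside the members with a mean of at least 5 TPM, those most like the class II mean over the 5 libraries (Pearson r of log2 values, as a description) were Pld4, Vav1, Slamf7, Dok2 and Mfng, with r of 0.998 to 0.999. Pld4 was at 71.9 and 79.4 TPM in the controls, against 61.8, 35.5 and 18.6 TPM in knockout-labelled mice 1, 2 and 3. Vav1 is a signalling gene of blood cells, and Ptprc ranked 47th with r of 0.987. Among those most like the class I mean were Myo1f, Tifab and Ccr2, with r of 0.999 to 1.000. Ccr2, a chemokine receptor of monocytes, was at 80.2 and 66.2 TPM in the controls, against 71.4, 35.8 and 17.3 TPM in those mice. With 5 libraries many genes reach such values.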

How the data were processed

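Total RNA of sorted YFP-positive oviductal cells was made into low-input SMARTer libraries, per the labels' protocols. The authors deposited TPM per gene, with 1 column per library. The submitters' processing notes name the build mm10, and the name of the deposited table says that STAR was used. The STAR version, the gene counter, the annotation and read filters are not given in the sources used here. TPM sums to 1000000 in each library and keeps no depth, so no counting interval is given.

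A linear model of log2(TPM + 1) on genotype alone was fitted by limma 3.58.1 under R 4.3.3 (eBayes with trend), on 19292 genes with at least 1 TPM in at least 2 libraries. P-values are two-sided and adjusted by Benjamini-Hochberg over all genes, with a threshold of 0.05. The exact permutation test was two-sided, for Esr1, Cd74, H2-Ab1 and B2m. The fit was tested on simulated data. The members, gene lists and motifs were chosen with earlier results of these data known. Named from each other list are the lowest and highest gene and those past the threshold. In addition, the 5 genes most like class II and 3 of the 5 most like class I are named (the others are not reported here), and H2-Ea, H2-Eb2, H2-DMb2, Ctss, Rfx5, Tap2, Tapbp, Tapbpl, Canx, Psmb8, Pdia3, Psmb9, Ifng and Dcn were named after their values were seen. Promoters are from RefSeq, and coordinates are GRCm38.p6, the assembly of mm10. Figures and tables used Python 3.11.15 with pandas 2.3.3 and scipy 1.17.1. H2-Ea-ps and Trac were searched for by those names and not analysed here.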

Additional observations from a re-analysis of the deposited data

How the results depend on the processing

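All 160 values of the 10 members over 16 alternatives were negative, 149 on the same side of the threshold as in the fit to all 5 libraries and 11 past it, with adjusted p from 0.0163 to 0.937 (limma). The fits without a control mouse leave 1 control, which is assumed to vary like the other libraries.

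Class II members called lower numbered 0, and 1 (H2-DMb1) with array weights, where 2.05% of all genes were called lower. Class I members called lower numbered 0. Leaving out each library in turn, the class II count ranged from 0 to 2, the class I count from 0 to 1, genes called higher over all genes from 0 to 1022, and genes called lower from 0 to 502, the high values without knockout-labelled mouse 1.

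Over all genes, 2 were called higher and 3 lower. Neither direction had a call (0) under the 0.1 pseudocount or the filter at a mean TPM of 5, where 2233 and 1389 genes had an unadjusted p under 0.05. Robust eBayes and the unfiltered table each left 1 higher gene, and quantile normalization, median-of-ratios scaling and an untrended eBayes left 0. Without Rpph1 and Rn45s 5 were lower. Array weights gave 260 higher and 396 lower. The split at an unadjusted p under 0.05 was 713 higher and 1904 lower, against 1139 and 1386 after quantile normalization, 1290 and 1710 after median-of-ratios scaling, and 643 and 746 under the filter at a mean TPM of 5.

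The mouse number as a replicate block called 5 class II members lower (all but H2-Eb1 and Ciita, with Cd74 at -1.48 and H2-Ab1 at -1.51), 2 class I members (H2-K1 and H2-D1), and over all genes 1165 higher and 693 lower (3.59% of all genes). Mouse 1 has no partner, so this fit takes its contrast from mice 2 and 3. Almost no information on the spread between libraries is left in it, so its calls rest largely on the variance that eBayes shares over genes. Deviations from the group means correlated at -0.060 and -0.072 between libraries of the same number. The deviations of the 2 controls mirror each other, so these are not separate checks. They cannot show whether mice of the same number were related or handled together, and the labels give only the number.

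Esr1 reversed to 0.15 with array weights and to 0.57 with the replicate block. Pdgfra was -0.074 with the block, Krt7 0.028 with median-of-ratios scaling, 0.19 with array weights and 0.40 with the block, Cd3e -0.64 with the block, and Icosl -0.058 with quantile normalization. Leaving out each library in turn, Esr1 ranged from -0.68 to 0.57, Pdgfra from -0.074 to 0.35, Krt7 from -0.31 to 0.40, Cd3e from -0.64 to 1.04, Cldn5 from -0.039 to 0.62 and Ctsb from -0.10 to 0.51. The cause was not tested.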
